A study of Mus musculus with 6 samples.

Results

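The apolipoproteins and the microsomal triglyceride transfer protein are the proteins that the liver puts on, or uses to load, the lipoprotein particles that carry lipid in blood. The group described here holds 10 genes, Apoa1, Apoa2, Apoa4, Apoa5, Apob, Apoc1, Apoc2, Apoc3, Apoe and Mttp, taken by gene name from the 23036 rows of the deposited RNA-seq table, and all 10 passed the filter on low counts. The study asked what HKDC1, a member of the hexokinase family, does in the liver during metabolic dysfunction-associated steatohepatitis, a fatty liver disease with inflammation. Its 6 poly(A)-selected libraries came from livers of female mice fed a western diet from 8 weeks of age, for 20 weeks. The genotype field gives 3 libraries as HKDC1 fl/fl, floxed mice that serve as the control (called flox 1 to 3), and 3 as HKDC1 LKO, a hepatic knockout (called LKO 1 to 3). The diet is shared by both groups, and no group on another diet was analysed here. The Cre line that removes the floxed part of the gene, and whether the control mice carry Cre, are stated in no source used here. The labels do not say how the libraries map to animals, so a p-value reflects library-to-library spread, which may be technical.

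The labels of 2 libraries contradict each other. The library called flox 3 has a title that names LKO, and the library called LKO 1 has a title that names fl/fl. The library names used throughout follow the genotype field, and the comparisons are made under 3 readings, namely the genotype field over all 6 libraries, the 4 libraries whose labels agree (flox 1, flox 2, LKO 2 and LKO 3), and the titles over all 6 libraries. The targeted gene, Hkdc1, was counted at 2.53 CPM (counts scaled to library size with edgeR's TMM factors) in flox 1, 1.36 in flox 2, 0.0649 in flox 3, 0.592 in LKO 1, 0.0603 in LKO 2 and 0.253 in LKO 3. It was thus lowest in LKO 2 and in the library labelled flox 3, and the library labelled LKO 1 lay above LKO 2, LKO 3 and flox 3. No reading passed the test for Hkdc1 (edgeR's quasi-likelihood test with Benjamini-Hochberg adjustment over all genes, adjusted p = 0.571 by genotype field, 0.11 with the agreeing libraries and 0.108 by title). Its counts were 1 to 49 per library, and whether they come from the deleted stretch is not known. Total counts were 16166515 to 17366295 per library. Hepatocyte markers were high in all 6 libraries (12 genes, summed level 97679 to 128477 CPM). Adrenal cortex markers stood apart in LKO 2, at a summed 2746 CPM, and in LKO 3, at 409 CPM, against 107 to 152 CPM in the other 4 libraries. Cyp11b1, an enzyme of adrenal steroid synthesis, was at 440 CPM in LKO 2 and 43.6 CPM in LKO 3 and at 0 to 0.124 CPM elsewhere, so both LKO libraries of the agreeing set carried these markers. LKO 2 also had the highest adipocyte marker sum, 131 CPM against 13.6 to 66.4 CPM. The sum hides a rise in LKO 3. Plin1 was at 26.2 CPM in LKO 2, 3.23 CPM in LKO 3 and 0 to 0.130 CPM elsewhere, and Ucp1 at 36.3, 4.18 and 0 to 0.237 CPM. Cidec, in the same list, was lowest in LKO 3 (8.49 CPM) and highest in flox 2 (66.3 CPM).

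As background, apolipoprotein B forms the backbone of very low density lipoprotein, and MTTP loads lipid onto it in the endoplasmic reticulum. Apolipoproteins A-I and A-II are the main proteins of high density lipoprotein, apolipoprotein E is the ligand by which remnant particles are taken up by the liver, and the C apolipoproteins and apolipoprotein A-V tune lipoprotein lipase. In mice, apolipoprotein A-IV is made mainly by the small intestine and also by the liver, where its mRNA is known to rise in fatty liver.

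The 4 genes of the cluster on chromosome 9 carry the main contrast among the members. In the files' coordinates (GRCm39) the cluster runs over 43.34 kb, chr9:46139878-46183217, in the order Apoa1 (plus strand), Apoc3 (minus strand), Apoa4 (plus strand) and Apoa5 (plus strand). Apoc3 ends 5059 bases before Apoa4 begins, and 25173 bases lie between Apoa4 and Apoa5. The promoter windows of the 3 plus-strand genes are shown to set Apoa4 beside its neighbours. Each is the RefSeq window from 250 bases before to 50 bases after the annotated start (build GRCm38.p6, plus strand, so the coordinates differ from those of the files), at chr9:46240594-46240893 for Apoa4, chr9:46228380-46228679 for Apoa1 and chr9:46268358-46268657 for Apoa5. Capitals mark the matches found to the motifs given in the next paragraph.
Apoa4: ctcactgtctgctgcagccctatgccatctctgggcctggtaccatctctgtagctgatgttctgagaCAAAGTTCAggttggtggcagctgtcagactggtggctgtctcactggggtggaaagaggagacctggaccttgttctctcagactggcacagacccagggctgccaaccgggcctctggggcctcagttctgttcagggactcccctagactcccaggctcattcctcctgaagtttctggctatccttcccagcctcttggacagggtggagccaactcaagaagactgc
Apoa1: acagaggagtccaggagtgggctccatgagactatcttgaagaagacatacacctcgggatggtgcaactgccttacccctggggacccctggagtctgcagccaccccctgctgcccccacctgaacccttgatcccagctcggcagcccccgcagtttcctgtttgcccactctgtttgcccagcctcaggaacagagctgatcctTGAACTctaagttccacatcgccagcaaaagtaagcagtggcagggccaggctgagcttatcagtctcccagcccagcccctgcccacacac
Apoa5: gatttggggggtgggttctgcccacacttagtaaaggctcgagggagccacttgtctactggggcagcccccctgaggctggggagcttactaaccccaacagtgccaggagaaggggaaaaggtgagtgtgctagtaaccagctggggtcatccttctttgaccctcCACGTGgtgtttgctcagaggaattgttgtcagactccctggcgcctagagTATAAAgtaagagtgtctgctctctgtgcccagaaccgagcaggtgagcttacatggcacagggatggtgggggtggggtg

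The search of these windows, on both strands, covered TATAAA (the TATA box), CACGTG (an E-box), AGGTCA and AGTTCA (hexamers that nuclear receptors bind), a direct repeat (AGGNCA, 1 base of any kind, AGGNCA) and TGACGT (the core of a cAMP response element). CAAAGTTCA, an extension of AGTTCA, was added after the Apoa4 window had been read. Apoa4 held CAAAGTTCA from -182 to -174, which contains the AGTTCA match from -179 to -174, and Apoa1 held AGTTCA on the minus strand from -42 to -37, printed as its reverse complement. Apoa5 held CACGTG from -82 to -77 and TATAAA from -31 to -26 in the printed window. In its other window, for another annotated start, these matches lay from -107 to -102 and from -56 to -51. Of the 32851 windows in the RefSeq table, 0.39% held CAAAGTTCA, 14.0% AGTTCA, 7.15% CACGTG and 13.6% TATAAA, and the 3 motifs with no match in the 3 printed windows were in 16.3% (AGGTCA), 0.3805% (the direct repeat) and 7.51% (TGACGT). Among the other members with a window, Apob held TATAAA from -60 to -55, Mttp held TGACGT on the minus strand from -29 to -24, and Apoc2 held the direct repeat from -122 to -110, which contains an AGGTCA match, and another AGGTCA from 42 to 47. Apoa2 held TATAAA from -212 to -207 in 1 of its windows and AGGTCA on the minus strand from -238 to -233 in another, and Apoe held TATAAA from -96 to -91 and, on the minus strand, from -100 to -95 in 1 of its windows. A match describes letters in the window and not a bound site. The table held a window for 8 of the 10 members, and Apoc1 and Apoc3 were not matched.

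The members spanned a wide range of levels per length. By deposited FPKM (fragments scaled to gene length and to library size), Apoe was highest, with a median of 13625 over the 6 libraries (11551 to 15440). Apoa2 followed at 8692, Apoa1 at 5036, Apoc1 at 3003 and Apoc3 at 1406. Apoa5 (373), Apob (322) and Apoa4 (245) came next, and Mttp (47.2) and Apoc2 (6.08) were lowest. Of the 9 neighbouring pairs in this order, 6 did not overlap over the libraries in FPKM. With TMM-scaled CPM per kb of gene length in place of FPKM, 5 pairs did not overlap. By FPKM, the ranges of Apoa2 and Apoa1 overlapped, although Apoa2 was above Apoa1 in all 6 libraries. Those of Apoa5 and Apob overlapped, with Apoa5 above in 5 libraries, and Apoa4 lay below Apob in only 3 of the 6 libraries. Together the 10 genes took 4.35% to 5.71% of all counts, and Apoe alone 2.47% to 3.30%.

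**Figure D1:**
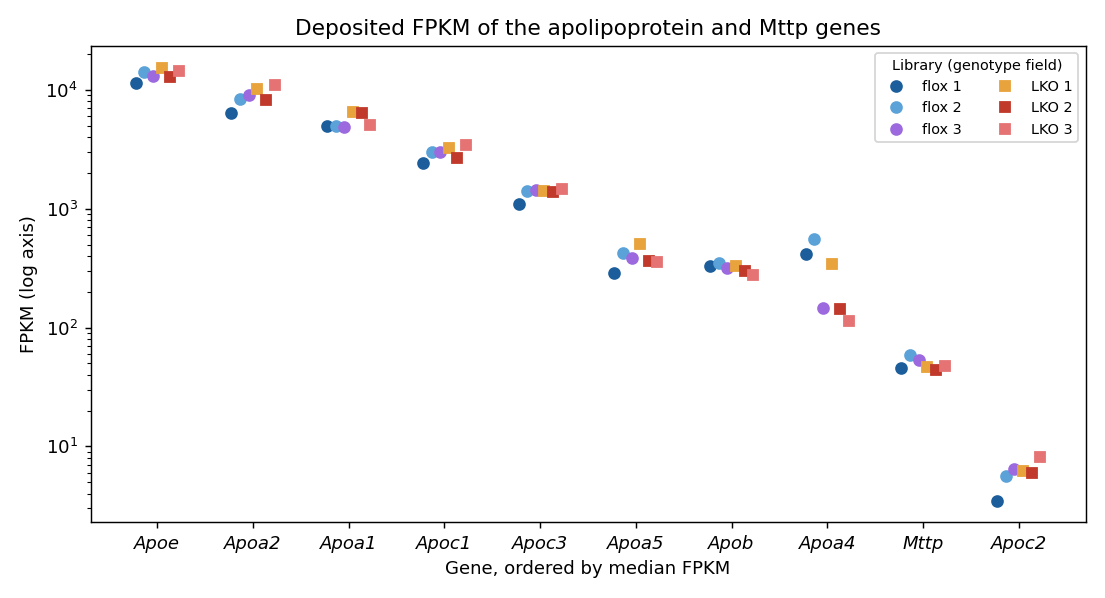
Deposited FPKM (log axis) of the 10 members, ordered by median, with 1 point for each of the 6 libraries. Apoe sits highest between 11551 and 15440 and Apoc2 lowest around 6.08, and the points of Apoa4 are spread the most, with the highest 4.92 times the lowest.

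Apoa4 was the member that varied most. Its level was 659 CPM in flox 1, 1014 CPM in flox 2, 280.0 CPM in flox 3, 642 CPM in LKO 1, 259.7 CPM in LKO 2 and 219 CPM in LKO 3. The high libraries were thus flox 1, flox 2 and LKO 1, the 3 that titles name fl/fl, and the lowest of them was 2.29 times the highest of the other 3. The highest library was 4.64 times the lowest for Apoa4, against 1.20 to 2.81 times for the other 9 members.

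By the genotype field the Apoa4 groups overlapped, with flox at 651 ± 367 CPM and LKO at 373 ± 234 CPM (mean ± SD over 3 libraries each). The log2 fold change of LKO against flox was -0.80 (SE 0.54) and did not pass (edgeR adjusted p = 0.635). With the 4 libraries whose labels agree, Apoa4 averaged 239 ± 29.2 CPM in LKO against 837 ± 251 CPM in flox (SD, n = 2 each), with a log2 fold change of -1.80 (SE 0.26) that missed the threshold (edgeR adjusted p = 0.0568). That reading passed without LKO 2 (edgeR adjusted p = 0.01) or LKO 3 (0.0307), fits in which the lone library left is assumed to vary like the pair. By title, Apoa4 fell 3.06-fold, from 772 ± 210 CPM in libraries titled fl/fl to 253 ± 31.4 CPM in those titled LKO (SD, n = 3 each), with -1.61 on the log2 scale (SE 0.21) and rank 22 by p among 14310 genes (adjusted p = 0.0297 in edgeR). The call by title was lost without flox 2 (edgeR adjusted p = 0.161), flox 3 (0.0711), LKO 2 (0.0811) or LKO 3 (0.183), and held without flox 1 or LKO 1. The exact two-sided permutation test over libraries gave p = 0.1 by title, the smallest that 3 against 3 allow, p = 0.333 with the agreeing libraries, again the smallest possible, and p = 0.2 by genotype field.

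By title, the groups of the 3 neighbours of Apoa4 overlapped. Apoa1, whose product activates the enzyme that esterifies cholesterol on high density lipoprotein, had CPM values of 5335, 6126 and 6410.1 for flox 1 to 3 and 8266, 7835 and 6704 for LKO 1 to 3. By the genotype field all LKO values of Apoa1 lay above all flox values, but the log2 fold change of 0.35 (SE 0.20) did not pass (edgeR adjusted p = 0.594), and by title the groups overlapped. Apoc3, whose product inhibits lipoprotein lipase, was at 965, 1418 and 1551 CPM in flox 1 to 3 and at 1475, 1393 and 1563 CPM in LKO 1 to 3, so that only flox 1 stood low. Apoa5, whose product promotes lipolysis of triglyceride-rich particles, was at 637, 1067 and 1026 CPM in flox 1 to 3 and at 1306, 904 and 949 CPM in LKO 1 to 3, with its highest value in LKO 1. The groups of Apoc3 and Apoa5 overlapped under all 3 readings.

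Ratios of counts within a library do not depend on the scaling between libraries. Apoa4 reached 68.3% of the Apoc3 count in flox 1, 71.5% in flox 2 and 43.5% in LKO 1, but 18.1% in flox 3, 18.7% in LKO 2 and 14.0% in LKO 3. That ratio covered a 5.11-fold range, against 1.36-fold for Apoa1 over Apoc3 and 1.46-fold for Apoa5 over Apoc3. Apoa4 against the summed hepatocyte markers covered a 5.45-fold range, in the same 3 high and 3 low libraries.

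**Figure D2:**
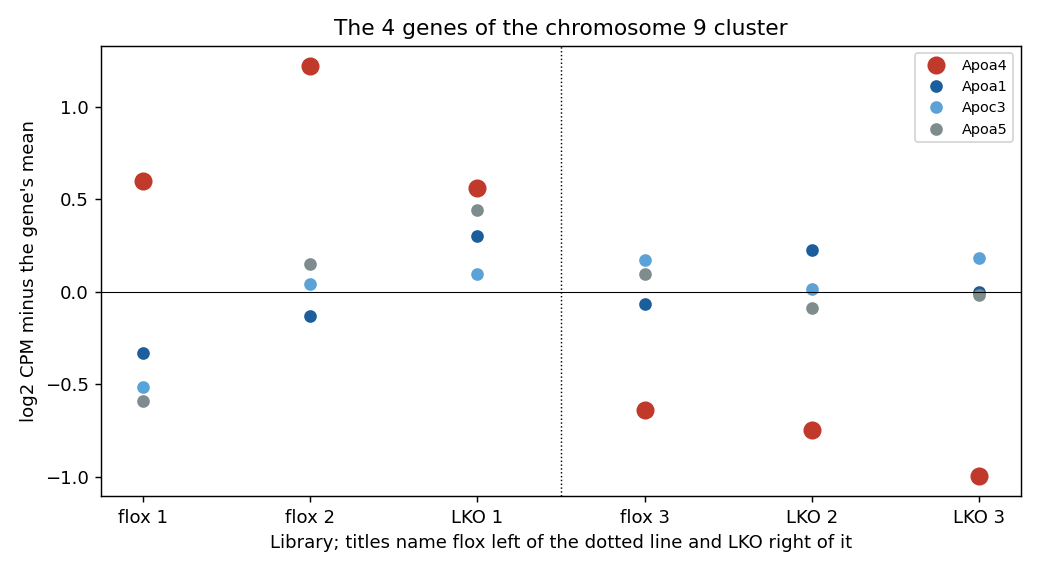
Log2 CPM of the 4 cluster genes on chromosome 9, each minus its own mean over the 6 libraries (y axis), by library (x axis); titles name fl/fl left of the dotted line and LKO right of it. Apoa4 lies above 0 in flox 1, flox 2 and LKO 1 and below 0 in the other 3 libraries. Apoa1 and Apoa5 are mixed on each side, and Apoc3 lies below 0 only in flox 1.

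Some markers of other cells moved with Apoa4. Cholangiocyte markers (8 genes, among them Spp1, Krt19, Krt7, Sox9 and Epcam) summed to 169 to 476 CPM in the libraries titled fl/fl. They summed to 33.8 to 79.7 CPM in those titled LKO. Most of each sum was Spp1 (152 to 428 CPM against 26.5 to 68.1 CPM), whereas Krt19 was at 2.07 to 5.84 CPM against 0.603 to 1.33 CPM. Of the 8, 7 were higher in each library titled fl/fl than in any titled LKO. Stellate cell markers summed to 543 to 1294 CPM against 374 to 479 CPM. Of the 10 genes, Lrat, Des, Reln, Dcn and Acta2 overlapped by title, and 5 (Col1a1, Col1a2, Col3a1, Lum and Pdgfrb) were apart in that way. By title, 10.4% of all genes tested were apart in that way and 8.61% in the opposite way. The summed hepatocyte markers went the other way, at 97679 to 111473 CPM in libraries titled fl/fl against 115765 to 128477 CPM, but only 5 of the 12 genes were lower in each library titled fl/fl, and 2 (Trf and Hpx) were higher in each. In bulk tissue fewer cells of a type and less RNA per cell cannot be told apart. Of the markers of gut epithelium, a main source of Apoa4 in mice, the defining factors Cdx1 and Cdx2 were at 0 in all 6 libraries. Of the 10 listed gut genes, 8 were found. The gut list summed to 100 to 167 CPM in libraries titled fl/fl and 122 to 159 CPM in those titled LKO, most of it Fabp2 (79.5 to 139 CPM) and Lgals4. Only 1 of the 8, Krt20 at 0 to 2 counts, was higher in each library titled fl/fl, and 0 were lower. Vil1 was at 1.81 CPM in flox 1, 0.742 CPM in flox 2 and 0.178 to 0.324 CPM elsewhere. The macrophage sums overlapped, at 918 to 1032 CPM against 756 to 1127 CPM, but 3 of the 10 genes were higher in each library titled fl/fl and 2 were lower. The 3 were Gpnmb (45.6 to 191 CPM against 2.89 to 14.3 CPM), Trem2 (17.1 to 50.2 CPM against 2.77 to 5.01 CPM) and Cd68 (30.4 to 58.1 CPM against 23.6 to 25.1 CPM). The 2 were Marco (2.25 to 7.14 CPM against 10.5 to 98.6 CPM) and Timd4 (3.22 to 5.21 CPM against 7.10 to 27.9 CPM). Their highest values were those of LKO 2, the library with the highest adrenal cortex and adipocyte sums. In flox 3 and LKO 3, Marco was at 10.5 and 13.6 CPM and Timd4 at 8.76 and 7.10 CPM. By title edgeR called 1 of the 10 macrophage markers lower in LKO, beside 0.3% of all genes, and no stellate cell or cholangiocyte marker. With the agreeing libraries it called 1 of 10 macrophage, 4 of 10 stellate cell and 1 of 7 tested cholangiocyte markers lower, beside 0.492%. The adipocyte sums overlapped too, at 31.2 to 66.4 CPM against 13.6 to 131 CPM, with 1 of 7 genes higher in each library titled fl/fl and 3 lower. Adrenal cortex markers summed to 107 to 129 CPM in libraries titled fl/fl and 152 to 2746 CPM in those titled LKO. Only 3 of the 12 genes were lower in each library titled fl/fl. The 152 CPM was that of flox 3 and was mostly Fdx1 (110 CPM) and Mrap (33.8 CPM). In that library Cyp11a1, Cyp11b1, Cyp21a1, Mc2r and Nr5a1 were at 0. The part of any of these cells in the Apoa4 difference was not tested.

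The cluster on chromosome 7 holds Apoc2, Apoc4, Apoc1 and Apoe, all on the minus strand, within 27.61 kb at chr7:19405504-19433113 (GRCm39). Apoe was at 21601, 30099 and 29827 CPM in flox 1 to 3 and at 33949, 27044 and 32884 CPM in LKO 1 to 3. Apoc1, whose product inhibits lipid transfer and receptor uptake, was at 1592, 2225 and 2376 CPM in flox 1 to 3 and at 2481, 1987 and 2741 CPM in LKO 1 to 3. Both were lowest in flox 1 and overlapped between groups under all 3 readings, and Apoc1 stayed at 7.31% to 8.34% of the Apoe count. Apoc4, which is not a member but lies between Apoc2 and Apoc1, held 1.02% to 1.49% of the Apoe count.

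Apoc2, the activator of lipoprotein lipase, had few counts for an apolipoprotein, with 48, 74 and 86 in the flox libraries (1 to 3) against 87, 80 and 110 in the LKO libraries (1 to 3). In the agreeing libraries both LKO values lay above both flox values (log2 fold change 0.75, SE 0.39), which did not pass (edgeR adjusted p = 0.413). These counts are uncertain. The row of Apoc2 overlaps that of Apoc2l, a gene on the same strand with 0 to 1 counts, and in the GENCODE M21 annotation 646 of the 813 exon bases of Apoc2 (79.5%) also belong to Apoc2l, and no source used here says how reads on shared bases were counted.

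The other 3 members lie outside these clusters. Apoa2 (chr1:171052623-171053948, plus strand) was at 2998, 4498 and 5124 CPM in flox 1 to 3 and 5596, 4353 and 6290.3 CPM in LKO 1 to 3, with flox 1 lowest. Apob (chr12:8027648-8066835, plus strand) was the steadiest member, at 4044, 4867 and 4671 CPM in flox 1 to 3 and 4682, 4125 and 4075 CPM in LKO 1 to 3. Mttp (chr3:137795615-137850729, minus strand) was at 248, 365 and 352 CPM in flox 1 to 3 and 299.8, 268 and 312 CPM in LKO 1 to 3. The Mttp row overlaps Trmt10a on the opposite strand by 1521 bases, and Trmt10a had only 73 to 98 counts. It also overlaps Gm43691 on that strand by 10802 bases, with 1 to 2 counts. Mttp stayed at 6.13% to 7.65% of the Apob count, and the groups of all 3 genes overlapped under each reading.

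Over the whole group, edgeR called 0 of the 10 members by genotype field, where it called 0% of 14310 genes, and 0 of 10 had an unadjusted p under 0.05, against 8.85% of all genes. DESeq2 and limma-voom also called 0 members there. With the agreeing libraries it called 0 of 10, against 0.622% of 14625 genes (0.13% higher and 0.492% lower in LKO), and 1 of 10, Apoa4, had an unadjusted p under 0.05, against 16.6% of all genes. DESeq2 called Apoa4 in that reading (adjusted p = 5.37e-11), where it called 733 genes over all against 91 in edgeR. There limma-voom called 0 members. By title edgeR called 1 of 10, Apoa4, which was lower in LKO, against 0.356% of 14310 genes in either direction, 0.3% lower and 0.0559% higher. Apoa4 was also the 1 member with an unadjusted p under 0.05 by title, against 13.9% of all genes. Groups did not overlap in CPM for 1 member by genotype field (Apoa1, higher in LKO), against 14.3% of genes (7.47% higher and 6.87% lower). They did not overlap for 3 members with the agreeing libraries (Apoa1 and Apoc2 higher, Apoa4 lower), against 49.2% of genes (24% higher and 25.3% lower), and by title for 1 (Apoa4, lower), against 19% (8.61% higher and 10.4% lower).

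The median log2 fold change of the 10 members was 0.21 by genotype field, 0.26 with the agreeing libraries and 0.07 by title, beside -0.0053, 0.0049 and 0.0042 over all genes tested. In each reading 7 of the 10 lay above 0, but scaling on hepatocyte markers turned Apoe and Apoa5 below 0 with the agreeing libraries and Apoa1, Apoc1, Apoe and Mttp below 0 by title, and library size alone turned Apoe and Mttp below 0 by title. That scaling on hepatocyte markers also moved the median of all genes to -0.11, -0.24 and -0.22 in the 3 readings. By CPM, 9 of the 10 members (all but Apoa4) were lowest in flox 1, whose TMM factor was the highest, 1.14. By deposited FPKM, 6 of 10 were lowest there.

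**Figure D3:**
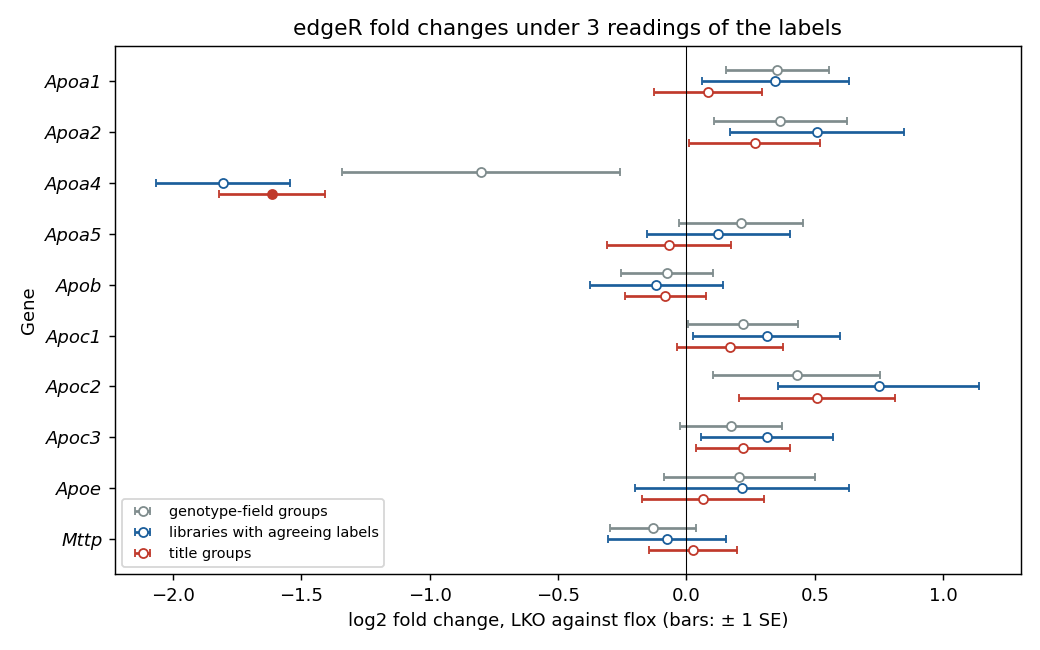
Log2 fold change of LKO against flox (x axis) with its standard error for each member, under the 3 readings of the labels (edgeR). Apoa4 alone is far below 0, at -1.80 with the agreeing libraries and -1.61 by title, and the filled point is its call by title.

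The rest of the lipoprotein pathway was described with 6 lists of 98 genes, of which 96 were tested. By genotype field 0 of 96 passed in edgeR, and 11 had an unadjusted p under 0.05, beside 8.85% of all genes tested. DESeq2 called 2 of the 96, Lmf1 and Nr1d1, in that reading, where it called 35 genes over all. An unadjusted p under 0.05 was found for 25 of 96 with the agreeing libraries, beside 16.6% of all genes, and for 16 of 96 by title, beside 13.9%. With the agreeing libraries 1 of 96 passed in edgeR and was higher in LKO, beside 0.622% of all genes (0.13% higher). By title 1 of 96 passed and was lower, beside 0.356% (0.3% lower). The median log2 fold change over the 96 was 0.07, 0.11 and 0.08 in the 3 readings.

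The list of other apolipoproteins held both calls. Apom, a carrier of sphingosine-1-phosphate on high density lipoprotein, was at 61.4, 70.3 and 148 CPM in flox 1 to 3 and 112, 152 and 191 CPM in LKO 1 to 3. It rose by 1.39 on the log2 scale with the agreeing libraries (SE 0.18, adjusted p = 0.0438 in edgeR), and its value was 1.01 by title (adjusted p = 0.117) and 0.71 by genotype field (adjusted p = 0.569). The call was lost without flox 1 (edgeR adjusted p = 0.208) or flox 2 (0.0964), and in limma-voom (0.0515). Saa1, an acute phase protein of high density lipoprotein, was at 276, 238 and 89.9 CPM in flox 1 to 3 and 189.6, 67.7 and 111 CPM in LKO 1 to 3, so that the 3 libraries titled fl/fl were the highest. By title it fell by 1.40 on the log2 scale (SE 0.21, adjusted p = 0.0453 in edgeR), and its value was -1.52 with the agreeing libraries (adjusted p = 0.0751) and -0.72 by genotype field (adjusted p = 0.634). The call was lost without 5 of the 6 libraries in turn, and held only without LKO 1. It was also lost under 5 other alternatives, at adjusted p = 0.0525 to 0.0621 in edgeR or limma. Saa1 and Saa2 are near-identical, so the split of reads between them is uncertain, and Saa2 missed the threshold by title at -1.61 (edgeR adjusted p = 0.0626).

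In the other 5 lists no gene passed in edgeR under any reading, so those of lowest p with the agreeing libraries, up to 2 for a list, are given by value. In lipoprotein assembly and secretion (27 genes tested, median log2 fold change 0.09), Tm6sf2, which helps to load lipid onto the particles, was at 0.58 (edgeR adjusted p = 0.18), and Sec24a, a coat protein of vesicles leaving the endoplasmic reticulum, at -0.40 (0.340). In lipoprotein receptors and their regulators (16 tested, median -0.10), Scarb1, the receptor for high density lipoprotein, was at 0.68 (edgeR adjusted p = 0.168). Scarb1 was highest in LKO 2 (329 CPM) and LKO 3 (261 CPM), the 2 libraries with adrenal cortex markers, against 173 to 206 CPM in the others, and the part of those cells was not tested. In plasma lipid remodelling (12 tested, median 0.10), Lipc, the hepatic lipase, was at 0.93 and Lmf1, a lipase maturation factor, at 0.59 (edgeR adjusted p = 0.113 for each). Among the efflux transporters (5 tested, median 0.07), Abcg1, which exports cholesterol to high density lipoprotein, was at -0.85 (edgeR adjusted p = 0.178), and Abcg8, which secretes sterols into bile, at 0.72 (0.290). Among transcription factors of apolipoprotein genes (25 tested, median 0.22), Nr1d1, a circadian repressor, was at 0.89 (edgeR adjusted p = 0.0643), and Mlxipl, which encodes the carbohydrate response factor ChREBP, at 0.77 (0.168). By title several of these values were smaller and their groups overlapped, with log2 fold changes of 0.19 for Lmf1 (edgeR adjusted p = 0.746), 0.38 for Nr1d1 (0.591), -0.18 for Sec24a (0.706), 0.35 for Abcg8 (0.633) and 0.42 for Scarb1 (0.434). The title values were 0.49 for Tm6sf2, 0.62 for Lipc, -0.76 for Abcg1 and 0.57 for Mlxipl (edgeR adjusted p = 0.168 to 0.239). By genotype field the values were 0.27 for Tm6sf2, -0.35 for Sec24a, 0.53 for Scarb1, 0.62 for Lipc, 0.57 for Lmf1, -0.47 for Abcg1, 0.59 for Abcg8, 0.78 for Nr1d1 and 0.50 for Mlxipl (edgeR adjusted p = 0.484 to 0.67).

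**Figure D4:**
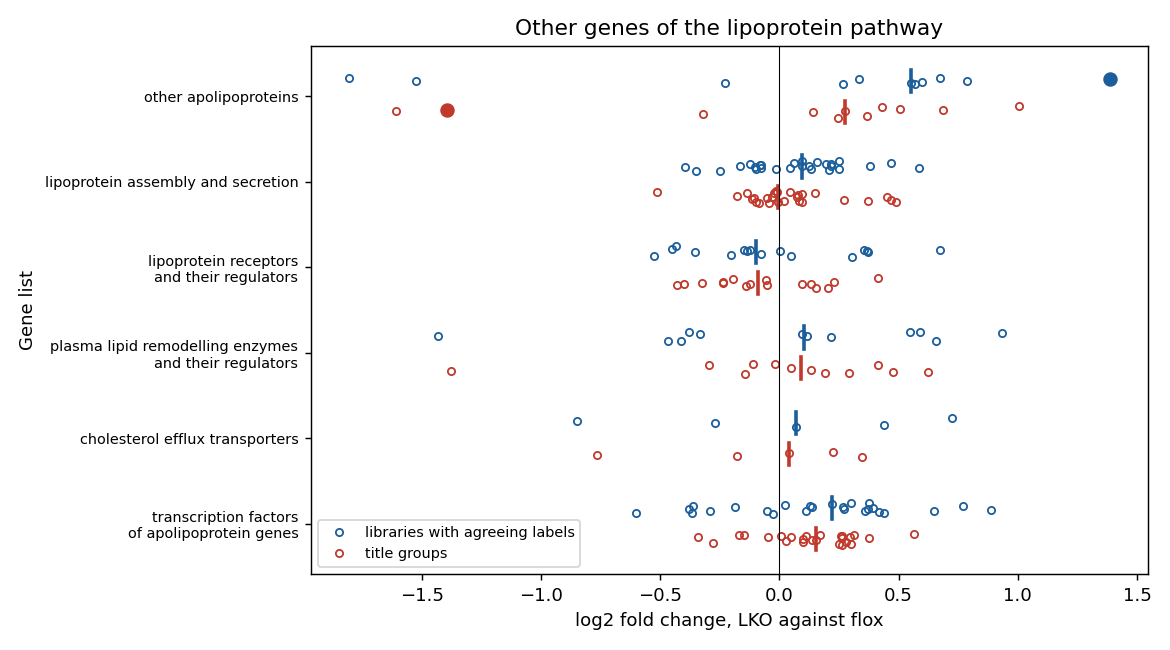
Log2 fold change of LKO against flox (x axis) for the 96 tested genes of 6 pathway lists, with the agreeing libraries in blue and by title in red; bars are the medians of each list and filled points passed the adjusted p threshold of 0.05. The filled points are Apom at 1.39 and Saa1 at -1.40, both in the list of other apolipoproteins.

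The genes most like the 3 most variable members were found by the root mean square (RMS) difference of centred log2(CPM + 0.5) over the 6 libraries, among 8685 or 8686 genes with a mean of at least 10 CPM. For Apoa4 they were Anxa5, a phospholipid-binding annexin (RMS difference 0.179), Lgals1, a galectin (0.195), and Synj2, a phosphoinositide phosphatase (0.203). Anxa5 was at 309, 326 and 100.3 CPM in flox 1 to 3 and 229, 103 and 92.3 CPM in LKO 1 to 3, which is high in the same 3 libraries as Apoa4. For Apoc2 they were Gnmt, Aspg and Gchfr (0.0809, 0.0914 and 0.0964), and for Apoa2 Dgcr6, Fabp1 and Aldh4a1 (0.0496, 0.0793 and 0.0889), all lowest in flox 1. Likeness over 6 libraries is a description, and the libraries share their depth, scaling and cell makeup.

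**Figure D5:**
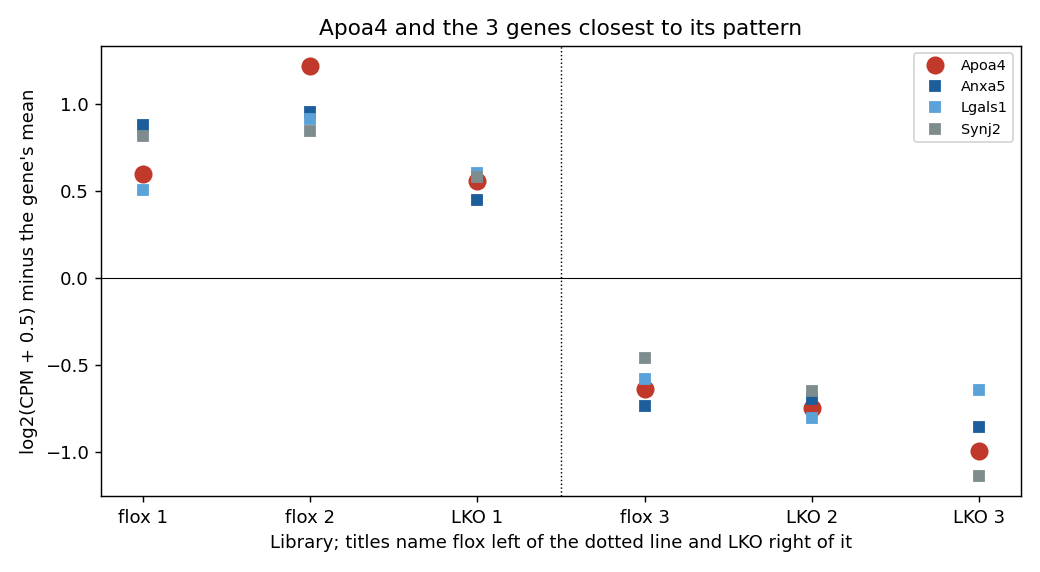
Centred log2(CPM + 0.5) of Apoa4 and its 3 nearest genes (y axis) in each library (x axis), by the smallest RMS difference, 0.179 to 0.203. All 4 genes lie above 0 in flox 1, flox 2 and LKO 1 and below 0 in the other 3 libraries.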

How the data were processed

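RNA-seq of 6 mouse liver libraries was analysed from 1 deposited table. The authors' columns are raw gene counts and FPKM, per the file headers, and the submitters' processing notes name fastp, HISAT, StringTie, Cufflinks and featureCounts with the build GRCm39, without versions or roles. No source used here states how strand and multi-mapped reads were handled. The library kit is not described as stranded in the labels.

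Counts were tested with edgeR 4.0.16 (R 4.3.3; TMM, filterByExpr with a minimum count of 10 and total of 15, glmQLFit and glmQLFTest), adjusted by Benjamini-Hochberg over all genes tested, with a threshold of 0.05. Hkdc1 was kept in the fits whatever its counts and left out of the counts over all genes. SE is the log2 fold change over the square root of F. Levels are CPM with TMM over 6 libraries; levels between genes are deposited FPKM. DESeq2 1.42.0, limma 3.58.1 (voom, and trend on log2(FPKM + 1) and log2(FPKM + 0.1)), other scalings, filters and left-out libraries were alternatives. The fits were also run on simulated counts, drawn independently with the fitted spread of each gene. Those data held no mislabelled library and no other tissue, so they cannot speak to these limits.

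The members, lists and tests were chosen with earlier results of these data known. Named genes were all members, each pathway gene past the threshold in any reading, the 2 of lowest p with the agreeing libraries for a list with none, and the 3 genes most like each of the 3 most variable members. A gene that this rule names is not reported here. Apoc4 and Saa2, outside that rule, were named after their values were seen, as neighbours or near copies. Figures were drawn with matplotlib 3.10.9. Total counts of 16166515 to 17366295 leave counting error small for all members but Apoc2.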

Additional observations from a re-analysis of the deposited data

How the results depend on the processing

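No paired analysis was possible because the labels give no replicate numbers that pair libraries across groups; the numbers used here only name libraries. Libraries with contradictory labels, 2 or 3 per group, and the cell makeup limit every comparison.

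In the agreeing libraries the count of members called, 0 in edgeR, became 1 (Apoa4) with library size alone, with no filter on low counts, in DESeq2, with either limma-trend fit and with size factors from hepatocyte markers, an alternative chosen after seeing the data; leaving out 1 library gave 0 to 1. By title, where it was 1, leaving out 1 library also gave 0 to 1, and Apoa4 passed under the 11 other alternatives. Its log2 fold change by title ran from -1.72 to -1.37 without 1 library.

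Of the pathway genes, the count called by genotype field was 0 and became 2 in DESeq2. With the agreeing libraries it was 1 and became 8 with no filter, 11 in DESeq2, 0 in limma-voom, 2 on log2(FPKM + 0.1), 3 with hepatocyte size factors and 0 to 10 without 1 library (0 without flox 1 or flox 2, 10 without LKO 2 and 4 without LKO 3). By title it was 1 and became 0 with library size alone, with a mean of at least 1 CPM, in limma-voom and in both limma-trend fits, 3 with no filter, 6 in DESeq2, 2 with hepatocyte size factors and 0 to 3 without 1 library (3 without LKO 1 and 0 without any other). Over all genes the count called rose from 0 to 35 in DESeq2 by genotype field, from 91 to 1108 with no filter and 733 in DESeq2 with the agreeing libraries, and from 51 to 629 in DESeq2 and 247 with no filter by title; it rose to 140 and 165 with hepatocyte size factors. It fell to 44 in limma-voom and 57 with upper-quartile factors with the agreeing libraries, and to 24 in limma-voom, 25 with a mean of at least 1 CPM and 30 on log2(FPKM + 1) by title. Without 1 library it ran from 0 (without flox 1) to 759 (without LKO 2) with the agreeing libraries, and from 0 (without flox 2) to 238 (without LKO 1) by title.

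Directions that reversed were of members or genes that did not pass in edgeR in that reading. With hepatocyte size factors these were, for the agreeing libraries, Apoe (-0.020) and Apoa5 (-0.099), and by title Apoe (-0.15), Mttp (-0.19), Apoa1 (-0.12), Apoc1 (-0.044) and Lmf1 (-0.015). By title, library size alone gave Apoe -0.020 and Mttp -0.066, log2(FPKM + 1) gave -0.013 and -0.061, and log2(FPKM + 0.1) gave -0.013 and -0.063. Without 1 library, log2 fold changes ranged for Apoc3 from -0.00078 to 0.31 by genotype field; with the agreeing libraries for Apoe from -0.0067 to 0.46, Apoa5 from -0.20 to 0.53, Apob from -0.25 to 0.011 and Mttp from -0.33 to 0.22; and by title for Apoe from -0.093 to 0.21, Mttp from -0.092 to 0.17, Apoa1 from -0.037 to 0.29 and Apoa5 from -0.30 to 0.17. The cause was not tested.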
